A study of Mus musculus and Homo sapiens with 14 samples.

Results

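Oli-neu cells grown beside D341 cells were compared with Oli-neu cells grown alone, across the 12025 of 35288 listed genes that reached at least 1 TPM in at least 2 of the 4 libraries compared. Oli-neu is a mouse oligodendrocyte precursor line immortalised with the t-neu oncogene, and D341 is an established human Group 3 medulloblastoma line. Poly(A) RNA was sequenced from 2 libraries of Oli-neu with D341 and 2 of Oli-neu alone, and 2 libraries of Oli-neu with MB1, a mouse Sonic hedgehog medulloblastoma line from Atoh1-cre:SmoM2 tumours, served as a second comparison. In co-culture the lines were held apart by a 30 mm PTFE insert with 0.4 µm pores, and the labels do not say whether the cultures of Oli-neu alone also held an insert. All groups grew in serum-free medium with B-27, N-2 and 20 ng/mL each of EGF and bFGF. Each group is called 2 biological replicates, numbered 1 and 2, of a single line, and what the numbers mark is not stated.

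Oligodendrocyte precursors divide in response to growth factors that act on receptor kinases, among them the PDGF receptor alpha and FGF receptors, and carry surface proteins such as NG2 and GPR17 until they differentiate. Transcription factors of the OLIG and SOX families keep their lineage identity. BMP signals, which turn on the ID genes, hold precursors back from differentiation. The heat shock response, driven by HSF1, raises a small group of chaperones when proteins misfold.

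Expression is given as TPM, abundance per transcript length scaled to 1000000 in each library, and the depth of the libraries is unknown. In the 4 libraries between 11596 and 11967 genes reached 1 TPM. Pseudogenes held 36.0% to 38.2% of all TPM, so that values of genes with close processed copies are uncertain. The precursor genes Sox10, Olig1, Olig2, Pdgfra and Cspg4 were all detected in every library, and of 14 markers of Group 3 tumours and photoreceptors only Sag reached 1 TPM, at 3.08 and 2.31 TPM with D341 and 3.53 and 2.81 TPM alone. Differences below are in log2(TPM + 1), with D341 minus alone, unless another scale is named.

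No gene passed an adjusted p of 0.05 in the limma fit of the 6 Oli-neu libraries, which is 0% of the 12025 tested, and the smallest adjusted p was 0.174. At an unadjusted p under 0.05, limma gave 203 genes higher and 1485 lower with D341, where 601 would be expected with no difference. Both libraries with D341 lay above both libraries alone for 859 genes, 7.14% of those tested, and below them for 5355, 44.5%. The median gene had a log2 difference of -0.16, lower with D341. After the columns were scaled by median ratios the median was 0.00 and the 2 directions were near even, with 601 genes higher and 455 lower at an unadjusted p under 0.05 and 2459 higher and 2436 lower without overlap. Values of single genes are therefore to be read against the -0.16 of the median gene. In bulk RNA, fewer cells of a type and less RNA per cell cannot be told apart.

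**Figure D1:**
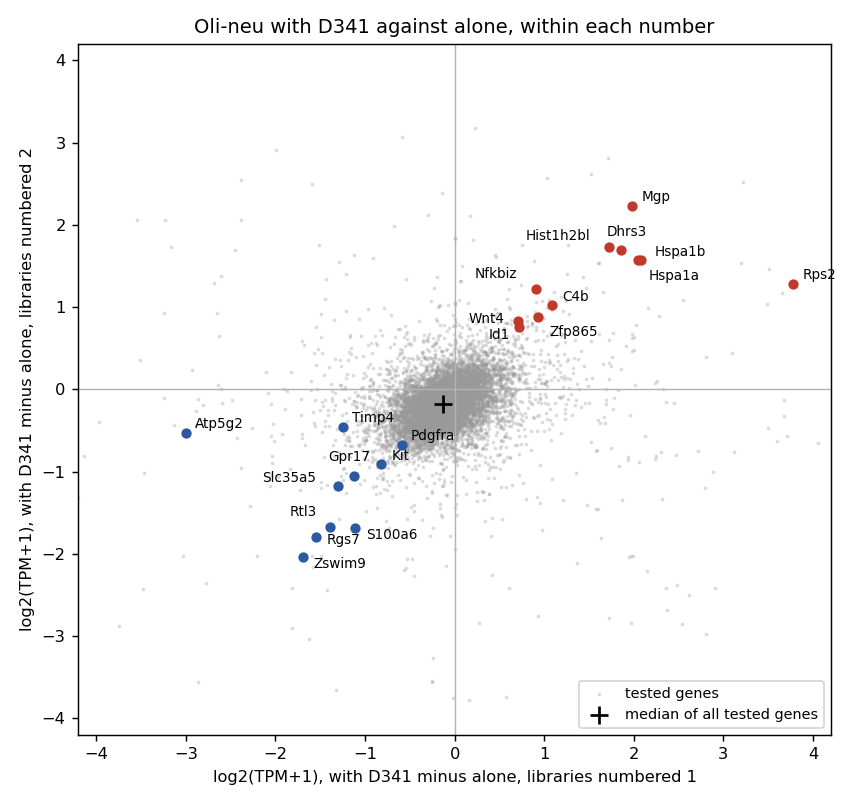
Difference in log2(TPM+1), with D341 minus alone, between the libraries numbered 1 (x axis) and between those numbered 2 (y axis), 1 point per tested gene. Colours mark 21 labelled genes, red for higher and blue for lower with D341, the cross marks the median gene, and 22 genes lie outside the axes. Mgp, Hspa1a, Hspa1b and Dhrs3 stand apart at the upper right, while Zswim9, Rtl3 and Rgs7 lie at the lower left.

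Of the tested genes, 71.4% had the same sign within both numbers. The median gene was lower within both, at -0.13 in number 1 and -0.18 in number 2, so this share includes the shift of the whole table. Agreement in sign was not counted after scaling. The median absolute log2 difference was 0.18 between the 2 libraries with D341 and 0.16 between the 2 alone. Between the means of the groups it was 0.20, which includes the shift of the median gene. A difference of means varies less than a difference between single libraries, so the 0.20 is not a like measure. Without overlap and with at least a 2-fold difference, 59 genes were higher and 88 lower with D341.

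Apart from Rps2, whose copies make its value uncertain, the largest log2 difference among the genes named as higher was that of Mgp (chr6:136872435-136875823, minus strand, GRCm38), which encodes matrix Gla protein, a secreted inhibitor of calcification that binds BMPs. Mgp had 4182 and 3064 TPM with D341 and 1057 and 653 TPM alone. Cells beside MB1 lay in between, at 2395 and 1787 TPM. All 3 groups were separate, although the 2 libraries with D341 were themselves far apart. The log2 difference from alone was 2.11 (SE 0.32, limma adjusted p = 0.311), with 1.98 in number 1 and 2.23 in number 2. From cells beside MB1 the difference was 0.79 (SE 0.32, limma adjusted p = 0.831).

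Mgp was counted among 8 tested targets of BMP and TGF-beta signalling. Of these 5 were higher and 1 was lower with D341 without overlap, against 7.14% and 44.5% of all tested genes. The median of the targets was 0.26, and 0.39 after scaling. Id1, a dominant negative partner of basic helix-loop-helix factors, had 52.3 and 52.9 TPM with D341, 20.9 and 25.5 TPM beside MB1 and 31.6 and 29.4 TPM alone. Its libraries with MB1 were the lowest, so that the difference of D341 from MB1 was 1.15 (SE 0.13, limma adjusted p = 0.438) and that from alone 0.77 (SE 0.13, limma adjusted p = 0.311). Id4, of the same family, had 10.4 and 10.3 TPM with D341 and 7.64 and 6.201 TPM alone. Ccn1, a secreted matricellular protein, had 10.2 and 10.03 TPM with D341 and 8.28 and 8.16 TPM alone. The exception was Hey1, a transcriptional repressor shared with Notch signalling, at 5.58 and 6.85 TPM with D341 and 7.74 in both libraries alone. Id3 and Sox9 did not reach the filter.

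Of 13 receptors and Smads of the pathway none was higher and 8 were lower without overlap, against 7.14% and 44.5% of all tested genes, with a median of -0.14 that turned to 0.02 after scaling. Smad5, which carries BMP signals to the nucleus, had 3.65 and 3.70 TPM with D341 and 5.26 and 5.06 TPM alone. Of 6 tested ligands, 1 was higher and 3 were lower without overlap. The higher one was Tgfb1, which encodes TGF-beta 1, at 10.3 and 10.9 TPM with D341 and 8.41 and 9.94 TPM alone.

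Hspa1a and Hspa1b, neighbouring genes for the stress-inducible HSP70 chaperone, were the chaperone genes with the largest difference. Hspa1b (chr17:34956436-34959238, minus strand, GRCm38) had 20.8 and 22.1 TPM with D341, 5.36 and 8.93 TPM beside MB1 and 4.17 and 6.74 TPM alone. Hspa1a (chr17:34969190-34972156, minus strand, GRCm38) had 12.0 and 11.0 TPM with D341, 3.36 and 4.46 TPM beside MB1 and 2.15 and 3.03 TPM alone. Both genes were well above the other 4 libraries in each library with D341. Because the 2 genes are nearly the same in sequence, reads can be split between them, and their sum was 32.8 and 33.0 TPM with D341, 8.72 and 13.4 TPM beside MB1 and 6.33 and 9.77 TPM alone. For Hspa1a the log2 difference was 1.81 from alone (SE 0.18, limma adjusted p = 0.200) and 1.35 from MB1 (SE 0.18, limma adjusted p = 0.723). For Hspa1b it was 1.83 from alone (SE 0.29, limma adjusted p = 0.311) and 1.496 from MB1 (SE 0.29, limma adjusted p = 0.831). Both comparisons use the same libraries with D341.

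The windows before the starts of these genes are shown because the chaperones that were higher and lower both carry letters that resemble a heat shock element, the sequence bound by HSF1. Each is the 250 bases before a RefSeq start of the gene on GRCm38.p6, all on the minus strand. They lie at chr17:34972157-34972406 for Hspa1a, chr17:34959239-34959488 for Hspa1b, chr5:149636337-149636586 for Hsph1 and chr1:55087933-55088182 for Hspd1. Hsph1 and Hspd1 had 2 windows each, and for both a window that held a motif was chosen for display. In GENCODE the Hspd1 gene spans chr1:55077835-55088243, so its window lies inside the gene. Hsph1 spans chr5:149614287-149636376, so its window overlaps the gene. Capitals mark GAANNTTC or TTCNNGAA, which read the same on both strands.
Hspa1a: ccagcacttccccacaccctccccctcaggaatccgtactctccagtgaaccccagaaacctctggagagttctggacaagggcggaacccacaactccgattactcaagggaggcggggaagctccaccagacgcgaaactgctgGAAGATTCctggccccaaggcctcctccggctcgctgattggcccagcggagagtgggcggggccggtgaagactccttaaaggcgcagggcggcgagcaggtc
Hspa1b: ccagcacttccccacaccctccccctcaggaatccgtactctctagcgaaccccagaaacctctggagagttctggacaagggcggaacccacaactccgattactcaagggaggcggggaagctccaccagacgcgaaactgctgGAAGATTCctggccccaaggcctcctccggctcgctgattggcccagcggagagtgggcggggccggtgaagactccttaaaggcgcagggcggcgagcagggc
Hsph1: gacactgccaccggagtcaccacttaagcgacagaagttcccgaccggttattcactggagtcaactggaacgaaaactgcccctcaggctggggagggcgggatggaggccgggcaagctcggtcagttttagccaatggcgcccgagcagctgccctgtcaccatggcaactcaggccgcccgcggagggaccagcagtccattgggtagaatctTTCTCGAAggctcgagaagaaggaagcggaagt
Hspd1: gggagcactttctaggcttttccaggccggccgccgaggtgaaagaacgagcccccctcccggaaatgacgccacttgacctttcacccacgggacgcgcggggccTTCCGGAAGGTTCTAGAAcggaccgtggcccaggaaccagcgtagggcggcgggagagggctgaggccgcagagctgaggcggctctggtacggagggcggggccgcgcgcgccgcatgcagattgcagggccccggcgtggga

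The windows of Hspa1a and Hspa1b shared 247 of 250 bases, and in both GAANNTTC began 104 bases before the start. In Hsph1 the match began 33 bases before the RefSeq start of the window shown. For the Hspd1 window, 3 overlapping matches began 144, 139 and 134 bases before its RefSeq start. Of the 10 inducible chaperones tested, 8 had a window and 7 of these held 1 of the motifs in at least 1 window, as did 1 of 8 constitutive chaperones and factors with a window. Over all 27025 genes with a window the share was 14.5%, and over the 32851 windows GAANNTTC stood in 6.69% and TTCNNGAA in 7.17%. The 7 include Hspa1a and Hspa1b, whose windows are nearly the same. Inducible chaperones were listed as genes of the heat shock response, so a higher share among them is not a test. These matches are descriptions of letters and not of bound sites.

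Among the 10 inducible chaperones, 4 were higher and 2 were lower without overlap, against 7.14% and 44.5% of all tested genes. Their median was 0.11, and 0.29 after scaling. Hsph1, an HSP110 exchange factor for HSP70, had 31.0 and 36.9 TPM with D341, 21.0 and 23.3 TPM beside MB1 and 20.8 and 21.6 TPM alone. Dnajb1, an HSP40 partner of HSP70, had 13.0 and 14.2 TPM with D341 and 11.9 and 11.6 TPM alone. Hspd1, the mitochondrial HSP60 chaperonin, went the other way, at 49.7 and 43.9 TPM with D341 and 76.9 and 66.6 TPM alone, while its partner Hspe1 overlapped, at 228 and 243 TPM with D341 and 229 and 250 TPM alone. Of the 12 constitutive chaperones and factors, none was higher and 7 were lower without overlap, with a median of -0.16 that turned to 0.02 after scaling. After scaling 1 of them was higher and 2 were lower without overlap, against 20.45% and 20.26% of all tested genes.

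**Figure D2:**
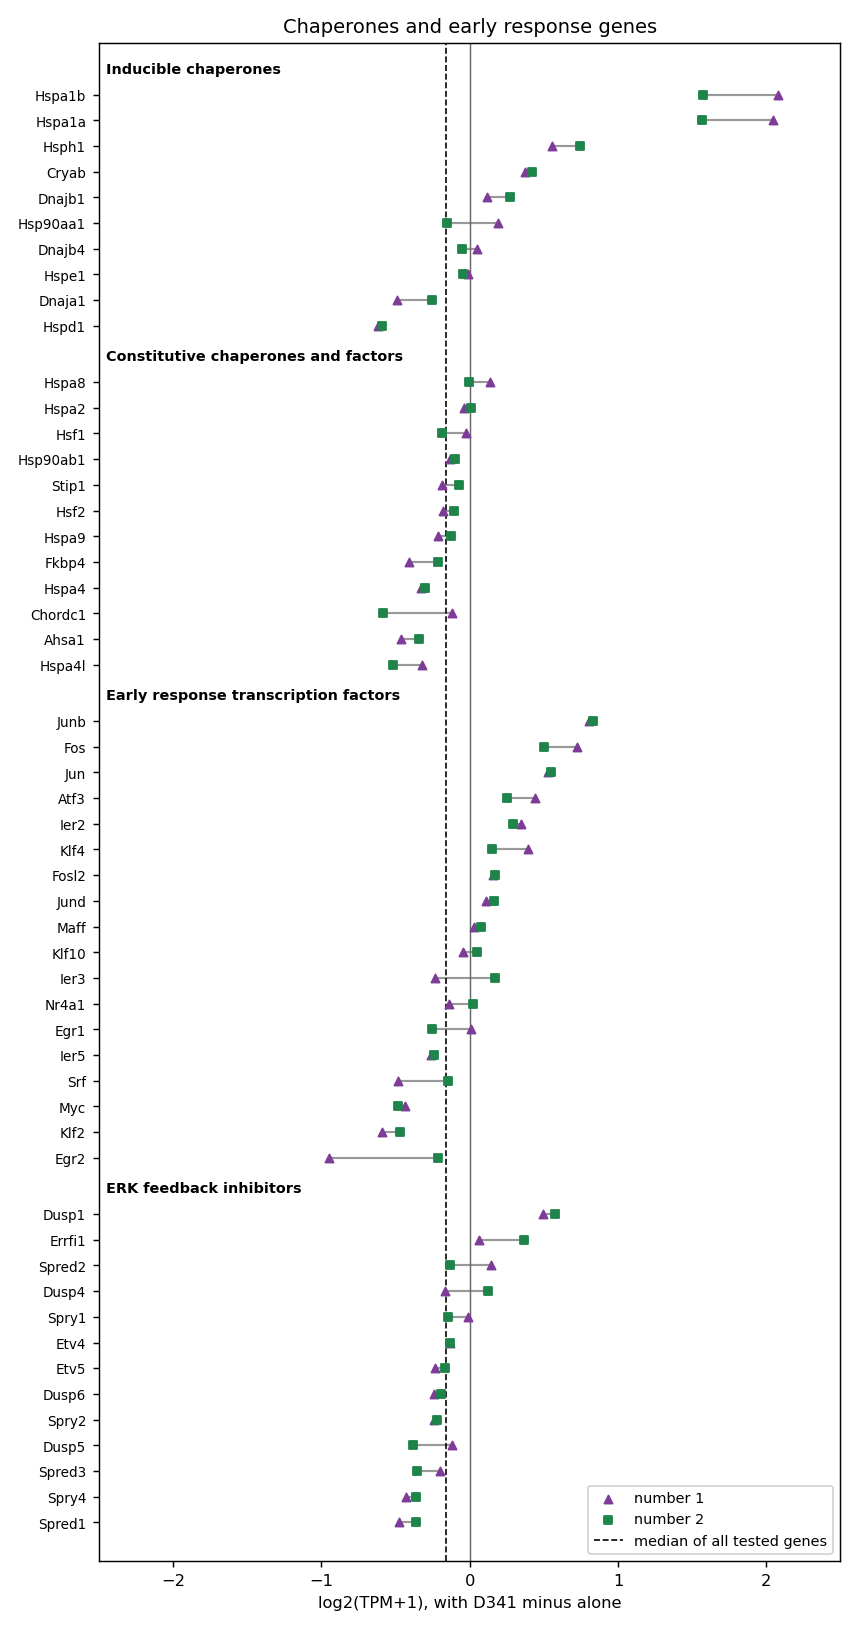
Difference in log2(TPM+1), with D341 minus alone, for each tested chaperone and ERK early response gene, ordered within its role. Triangles are the difference between the libraries numbered 1, squares that between the libraries numbered 2, and the dashed line is the median of all tested genes at -0.16. Hspa1a, Hspa1b and Hsph1 lie to the right in both numbers, Jun, Junb, Fos and Dusp1 likewise, and Spry4 and Spred1 lie to the left.

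Genes of the early response to ERK and stress kinases went in both directions. Of 18 transcription factors 6 were higher and 4 were lower without overlap, against 7.14% and 44.5% of all tested genes, with a median of 0.03. Junb, an AP-1 subunit, had 18.8 and 23.1 TPM with D341 and 10.3 and 12.5 TPM alone. Jun, another AP-1 subunit, had 40.5 and 39.9 TPM with D341, 37.6 and 36.4 TPM beside MB1 and 27.8 and 27.0 TPM alone, a log2 difference from alone of 0.54 (SE 0.10, limma adjusted p = 0.311). Fos, their partner, had 60.5 and 59.0 TPM with D341 and 36.2 and 41.4 TPM alone, with still higher values of 73.1 and 80.6 TPM beside MB1. Klf2, a Kruppel-like factor, was lower, at 1.2 and 1.25 TPM with D341 and 2.31 and 2.10 TPM alone. Egr1, a zinc finger factor of the same early wave, overlapped with the cells alone, at 39.4 and 38.2 TPM with D341 and 39.1 and 45.6 TPM alone, and was below both libraries with MB1, at 56.5 and 64.6 TPM.

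Of 13 feedback inhibitors of ERK signalling 2 were higher and 8 lower without overlap, against 7.14% and 44.5% of all tested genes. Their median of -0.20 shrank to -0.02 after scaling. Spry4, a Sprouty inhibitor of receptor kinase signalling, had 8.23 and 8.78 TPM with D341, 12.7 and 12.3 TPM beside MB1 and 11.4 and 11.6 TPM alone. Spred1, a related inhibitor of RAS, had 14.0 and 13.6 TPM with D341 and 19.8 and 17.7 TPM alone. Dusp1, a phosphatase that acts on p38 and JNK more than on ERK, was higher, at 14.6 and 17.4 TPM with D341 and 10.1 and 11.4 TPM alone. The kinase p38 alpha itself, Mapk14, had 9.87 and 13.5 TPM with D341, 34.0 and 18.2 TPM beside MB1 and 34.9 and 32.6 TPM alone, a log2 difference from alone of -1.47 (SE 0.31, limma adjusted p = 0.311). Gadd45b, a stress sensor that acts on the p38 and JNK cascade, had 52.7 and 76.0 TPM with D341 and 27.5 and 35.7 TPM alone.

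Of 22 receptor kinases tested, the proteins through which growth factors act on precursors, 2 were higher and 11 lower without overlap, with a median of -0.18 and of -0.03 after scaling. Both shares were near the 7.14% and 44.5% of all tested genes. Kit, the receptor of stem cell factor (chr5:75574916-75656722, plus strand, GRCm38), had 11.8 and 11.7 TPM with D341, 17.1 in both libraries beside MB1 and 21.7 and 22.8 TPM alone. Its log2 difference was -0.86 from alone (SE 0.10, limma adjusted p = 0.224) and -0.50 from MB1 (SE 0.10, limma adjusted p = 0.831), and the 3 groups did not overlap. Ddr2, a collagen receptor, had 6.52 and 6.26 TPM with D341 and 9.26 and 10.03 TPM alone. The higher ones were Tyro3, a receptor of the TAM family, and Erbb4, a neuregulin receptor that had 2.03 and 1.91 TPM with D341, 1.46 and 1.08 TPM beside MB1 and 1.07 TPM in both libraries alone. Among ligands, Vegfa, the main angiogenic factor, was abundant and lower, with 816 and 932 TPM beside D341 and 1212 and 1441 TPM alone.

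Surface proteins of precursors had 3 genes higher and 15 lower of 25, with a median of -0.18 and of -0.04 after scaling, and against MB1 2 were higher and 18 lower without overlap. Over all tested genes 7.14% were higher and 44.5% lower than alone without overlap, and 6.74% were higher and 28.8% lower than beside MB1. Gpr17, a receptor that marks committed precursors, had 3.96 and 4.03 TPM with D341, 7.42 and 6.73 TPM beside MB1 and 9.81 and 9.43 TPM alone. Pdgfra, the PDGF receptor alpha, had 8.42 and 7.13 TPM with D341, 13.3 and 11.9 TPM beside MB1 and 13.2 and 12.0 TPM alone. Gria2, the AMPA receptor subunit that limits calcium entry, had 6.29 and 4.73 TPM with D341, 10.3 and 9.05 TPM beside MB1 and 9.36 and 9.49 TPM alone. For these 3 genes both libraries with D341 lay below the other 4. The neural adhesion genes Cntn1 and Tnr, for contactin 1 and tenascin R, were also lower than in both other groups, with Cntn1 at 41.5 and 38.4 TPM with D341, 66.5 and 48.0 TPM beside MB1 and 63.7 and 53.9 TPM alone. Cspg4, the NG2 proteoglycan, differed less than the median gene, with a log2 difference of -0.14 that turned to 0.04 after scaling.

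Lineage factors had 2 genes higher and 13 lower of 27, and their median of -0.13 turned to 0.05 after scaling. These shares were near those of all tested genes, of which 7.14% were higher and 44.5% lower. Sox10, the factor required for oligodendrocyte differentiation, had 178 and 196 TPM with D341 and 171 and 197 TPM alone. Olig2, which specifies the lineage, had 49.2 and 51.7 TPM with D341, 59.9 and 67.2 TPM beside MB1 and 64.7 and 76.0 TPM alone, a log2 difference from alone of -0.47 (SE 0.14, limma adjusted p = 0.315). Olig1, its neighbour and relative, had 126 and 129 TPM with D341 and 167 and 187 TPM alone. Sox8, a close relative of Sox10, had 5.09 and 4.53 TPM with D341 and 6.40 and 6.31 TPM alone. The OLIG genes and Sox8 were thus separate between the groups where Sox10 overlapped.

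Myelin genes had 2 of 16 higher and 6 lower without overlap, against 7.14% and 44.5% of all tested genes. Their median of -0.16 was that of the median gene and came to -0.004 after scaling. After scaling 3 were higher and 4 lower without overlap, against 20.45% and 20.26% of all tested genes. Cnp, a myelin enzyme, had 16.1 and 18.1 TPM with D341, 20.5 and 21.8 TPM beside MB1 and 25.9 and 23.8 TPM alone. Fa2h, which makes the 2-hydroxylated lipids of myelin, had 1.85 and 2.38 TPM with D341 and 3.61 and 4.05 TPM alone. Mbp, for myelin basic protein, had 59.3 and 60.9 TPM with D341 and 68.3 and 76.2 TPM alone. Among 33 genes of cholesterol synthesis, which supplies myelin membrane, none was higher and 19 were lower without overlap, with a median of -0.25 and of -0.07 after scaling.

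**Figure D3:**
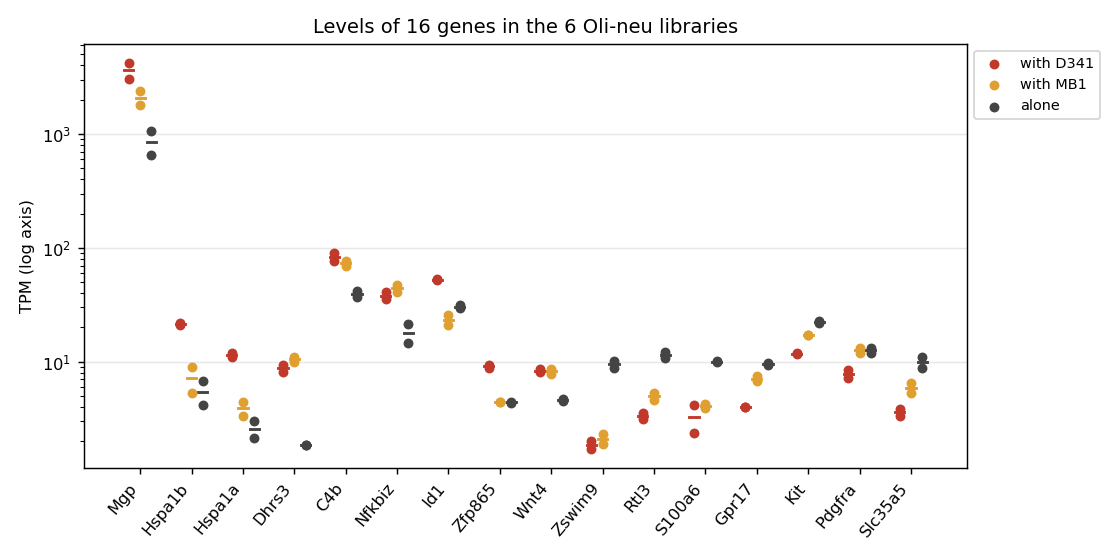
TPM on a log axis of 16 genes in the 6 Oli-neu libraries, with D341 on the left, with MB1 in the middle and alone on the right of each gene. Points are libraries and bars are means of the 2 libraries of a group. Hspa1a and Hspa1b are higher beside D341 than in the other 4 libraries, Dhrs3 and Wnt4 lie at like levels beside both tumour lines, and Gpr17 and Kit are lowest beside D341.

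Dhrs3 (chr4:144892827-144928209, plus strand, GRCm38), a reductase that turns retinal back to retinol, was the gene with the smallest p. It had 9.31 and 8.17 TPM with D341, 11.0 and 9.98 TPM beside MB1 and 1.85 and 1.84 TPM alone, a log2 difference from alone of 1.77 (SE 0.11, limma adjusted p = 0.174), and it was the 1 gene that passed when protein-coding genes alone were tested. Of 16 retinoid genes, only 1 other member was higher without overlap and 6 were lower, against 7.14% and 44.5% of all tested genes. The median of the list was -0.08 and turned to 0.06 after scaling. Among the lower members was Rxra, a retinoid X receptor, at 1.90 and 2.03 TPM with D341 and 2.29 and 2.67 TPM alone. Wnt4, a secreted Wnt ligand, had 8.07 and 8.596 TPM with D341, 7.76 and 8.70 TPM beside MB1 and 4.50 and 4.66 TPM alone. In the Wnt list, 4 of 20 genes were higher and 9 lower without overlap, against 7.14% and 44.5% of all tested genes. The lower share was near that of all tested genes. The zinc finger gene Zfp865 had 9.39 and 8.87 TPM with D341, 4.44 and 4.42 TPM beside MB1 and 4.45 and 4.38 TPM alone. Its 4 libraries outside D341 were nearly the same.

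Immune genes went in both directions. Nfkbiz, an inducible nuclear regulator of NF-kB, had 40.8 and 35.2 TPM with D341, 41.3 and 47.2 TPM beside MB1 and 21.3 and 14.5 TPM alone, a log2 difference from alone of 1.06 (SE 0.21, limma adjusted p = 0.311). C4b, for complement component 4, had 89.5 and 77.2 TPM with D341, 69.7 and 77.3 TPM beside MB1 and 41.8 and 37.3 TPM alone, and its close copy C4a was not analysed here. Ccl5, a chemokine, had 5.25 and 3.63 TPM with D341 and 2.32 and 1.82 TPM alone. Nfkb1, for the p105 and p50 subunit, was lower, at 5.86 and 7.36 TPM with D341 and 10.03 and 8.61 TPM alone. Of 18 NF-kB and cytokine genes 5 were higher and 4 lower without overlap, against 7.14% and 44.5% of all tested genes. Among 14 genes of MHC class I and peptide loading 1 was higher and none lower without overlap.

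Of 23 genes of the extracellular matrix 9 were higher and 3 lower without overlap, against 7.14% and 44.5% of all tested genes. Their median was 0.12, and 0.28 after scaling. Postn, for the secreted adhesion protein periostin, had 447 and 307 TPM with D341, 402 and 234 TPM beside MB1 and 226 and 145 TPM alone. Lama4, a laminin alpha chain of basement membranes, had 77.9 and 68.0 TPM with D341 and 46.5 and 51.1 TPM alone. Lama5, another laminin alpha chain, had 149 and 142 TPM with D341 and 99.4 and 111 TPM alone. Col18a1, the basement membrane collagen that yields endostatin, had 5.46 and 5.72 TPM with D341, 6.13 and 7.72 TPM beside MB1 and 3.17 and 2.88 TPM alone. The fibrillar collagens went the other way, with Col1a1 at 2.52 and 2.08 TPM with D341 and 5.12 and 4.09 TPM alone, and Col3a1 at 57.7 and 71.4 TPM with D341 and 94.5 and 90.9 TPM alone. Plat, tissue plasminogen activator, had 46.6 and 47.5 TPM with D341 and 28.8 and 31.8 TPM alone, whereas the metalloproteinase inhibitor Timp4 had 3.68 and 5.75 TPM with D341 and 10.1 and 8.27 TPM alone.

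Of 10 fibroblast markers, 5 reached 1 TPM in any of the libraries and Pdgfrb was at 0 in all. Their sum was 523 and 397 TPM with D341 and 337 and 254 TPM alone, most of it Postn, and their part in the matrix result was not tested. Among the microglia markers C1qa, C1qb, C1qc and Fcrls were at 0. Of 14 neuron markers, 4 reached 1 TPM in any of the libraries and Stmn2 was at 0 in all. Neuron markers summed to 35.2 and 33.8 TPM with D341 and 46.0 and 47.6 TPM alone. Most of that sum was Map2, at 24.3 and 22.6 TPM with D341 and 31.5 and 33.6 TPM alone. Astrocyte markers reached 8 of 14, among them Aldoc, Slc1a3 and S100b, and summed to 962 and 950 TPM with D341 and 1023 and 984 TPM alone. Most of that sum was Aldoc, an aldolase, at 732 and 744 TPM with D341 and 812 and 796 TPM alone. Agt, for angiotensinogen, was higher, at 14.4 and 13.4 TPM with D341, 14.9 TPM in both libraries beside MB1 and 9.07 and 6.33 TPM alone, and its log2 difference from alone was 0.80 (SE 0.17, limma adjusted p = 0.311).

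Genes of the amino acid stress response, many of them targets of the transcription factor ATF4, had a median of -0.33, and of -0.15 after scaling. Without overlap 1 of 23 was higher and 16 were lower, against 7.14% and 44.5% of all tested genes. Atf4 itself overlapped, at 211 and 247 TPM with D341 and 194 and 223 TPM alone, and so did Ddit3, for the stress factor CHOP, at 114 and 166 TPM with D341 and 96.0 and 128 TPM alone. Pycr1, the last enzyme of proline synthesis, had 14.4 and 16.6 TPM with D341, 22.5 and 21.0 TPM beside MB1 and 22.9 and 25.3 TPM alone. Phgdh, the first enzyme of serine synthesis, had 27.7 and 30.0 TPM with D341 and 44.4 and 39.0 TPM alone. Asns, asparagine synthetase, had 95.7 and 116 TPM with D341 and 142 and 166 TPM alone. Chac1, which degrades glutathione, had 3.74 and 5.16 TPM with D341 and 6.95 and 8.88 TPM alone. The 1 higher member was Ppp1r15a, the GADD34 subunit that restores translation after stress, with 59.9 and 49.2 TPM beside D341, 45.6 and 43.7 TPM beside MB1 and 37.1 and 34.0 TPM alone.

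The aminoacyl tRNA synthetases, which charge tRNAs, had none of 34 higher and 24 lower without overlap, with a median of -0.27 and of -0.12 after scaling. The counts here stand against 7.14% higher and 44.5% lower of all tested genes. Rars, the cytosolic arginyl enzyme, had 25.6 and 25.0 TPM with D341 and 33.2 and 32.7 TPM alone. DNA replication had none of 40 higher and 32 lower, with a median of -0.33 and of -0.16 after scaling, and against MB1 its median was 0.06. Genes of ribosome biogenesis and MYC targets had 1 of 29 higher and 19 lower, with a median of -0.28 and of -0.10 after scaling. Nop14, a factor of the small ribosomal subunit, had 14.2 and 16.1 TPM with D341, 21.0 and 18.5 TPM beside MB1 and 23.3 and 22.4 TPM alone. Notch pathway genes had 1 of 17 higher and 12 lower, with a median of -0.27 and of -0.11 after scaling, and the ligand Dll1 had 2.51 and 3.69 TPM with D341 and 4.09 and 5.44 TPM alone. After scaling, 15 synthetases, 19 replication genes, 9 ribosome and MYC genes and 3 Notch genes were lower without overlap. Of all tested genes 20.26% were lower without overlap after scaling, so the Notch share was near that of all genes.

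**Figure D4:**
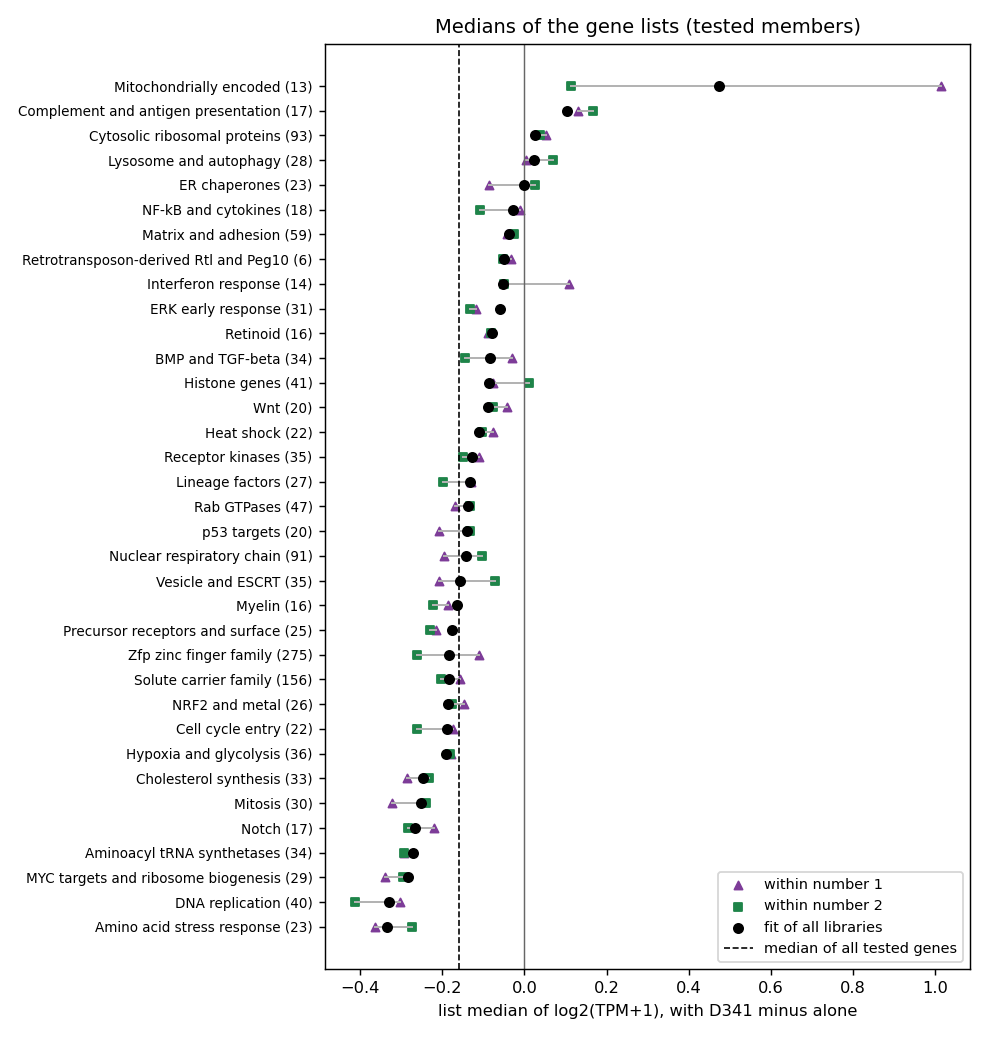
Median of log2(TPM+1), with D341 minus alone, over the tested members of each pathway list or gene family with at least 5, with the number of members in brackets and without the cell type marker lists. Black points come from the fit of all libraries, triangles and squares from the libraries numbered 1 and 2, and the dashed line is the median of all tested genes. Among the lists shown, amino acid stress response and DNA replication lie lowest at -0.33, and mitochondrially encoded genes lie highest but at 1.01 in number 1 and 0.11 in number 2.

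The medians of the Zfp zinc finger and solute carrier families stayed near that of all tested genes. Of all tested genes 7.14% were higher and 44.5% lower without overlap. Of 275 Zfp zinc finger genes 6 were higher and 123 lower without overlap, with a median of -0.18, and of 156 solute carriers 4 were higher and 77 lower, also with a median of -0.18. Within the first, Zfp507 had 2.71 and 2.58 TPM with D341 and 6.35 and 8.98 TPM alone, against the higher Zfp865. Within the second, Slc35a5, an orphan member of the nucleotide sugar transporter family, had 3.85 and 3.36 TPM with D341, 5.34 and 6.44 TPM beside MB1 and 11.0 and 8.84 TPM alone. Slc1a4, a transporter of alanine and serine, had 10.8 and 11.4 TPM with D341, 17.5 and 15.6 TPM beside MB1 and 15.8 and 16.8 TPM alone. After scaling, 30 Zfp genes were higher and 68 lower without overlap, and 25 solute carriers were higher and 39 lower. The shares of all tested genes after scaling were 20.45% higher and 20.26% lower.

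The genes with the lowest differences came from different families. Zswim9, a gene of a SWIM zinc finger family (chr7:13258967-13278721, minus strand, GRCm38), had 2.02 and 1.73 TPM with D341, 1.88 and 2.31 TPM beside MB1 and 8.77 and 10.2 TPM alone, a log2 difference from alone of -1.87 (SE 0.14, limma adjusted p = 0.174). Rtl3, a gene derived from a retrotransposon gag (chrX:106837082-106840644, minus strand, GRCm38), had 3.52 and 3.13 TPM with D341, 5.36 and 4.61 TPM beside MB1 and 10.9 and 12.2 TPM alone. Rgs7, a regulator of G protein signalling, had 0.56 and 0.36 TPM with D341, 0.82 and 0.76 TPM beside MB1 and 3.56 and 3.72 TPM alone. Beside both tumour lines these genes lay below the cells alone.

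S100a6, the calcium-binding protein calcyclin, had 4.14 and 2.38 TPM with D341, 4.26 and 3.95 TPM beside MB1 and 10.1 and 9.90 TPM alone, a log2 difference from alone of -1.40 (SE 0.21, limma adjusted p = 0.311). Trim44, an atypical TRIM family protein, had 10.2 and 9.63 TPM with D341, 19.5 and 14.6 TPM beside MB1 and 25.6 and 21.8 TPM alone. Tpm3, a tropomyosin of the actin cytoskeleton, had 29.6 and 23 TPM with D341, 39.4 and 33.3 TPM beside MB1 and 85.0 and 53.9 TPM alone. For Trim44 and Tpm3 the libraries with MB1 lay between the other groups.

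Some of the widest differences were uneven between libraries. Rps2, a protein of the small ribosomal subunit, had 603 and 70.3 TPM with D341 and 42.9 and 28.4 TPM alone, while its processed copy Rps2-ps10 had 1422 and 1944 TPM with D341 and 1818 and 2066 TPM alone. Summed over Rps2 and its annotated copies, 12 features in all, the values were 2038 and 2020 TPM with D341 and 1875 and 2100 TPM alone, so that the groups overlapped. Atp5g2, a subunit of ATP synthase, had 23.9 and 92.4 TPM with D341 and 198 and 134 TPM alone, with a log2 difference of -3.00 in number 1 and -0.54 in number 2. The transcription factor Pou2f1, known as OCT1, had 13.8 and 14.6 TPM with D341 and 2.69 and 9.07 TPM alone.

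The histone gene Hist1h2bl, one of a family of close copies whose transcripts mostly lack poly(A) tails, had 4.52 and 7.13 TPM with D341, 1.05 and 2.90 TPM beside MB1 and 0.67 and 1.45 TPM alone. Its log2 difference from alone was 1.72 in number 1 and 1.73 in number 2, although the 2 libraries of each group lay apart.

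Set directly against cells beside MB1, cells beside D341 had no gene past an adjusted p of 0.05 in limma, 0% of 12025, with a smallest adjusted p of 0.337. At an unadjusted p under 0.05, limma gave 98 genes higher and 511 lower with D341 than with MB1. Together these were near the 601 expected with no difference. The median gene had a log2 difference of -0.09. Hspa1a, Hspa1b, Id1 and Zfp865 were higher than beside MB1 by a log2 difference of 1.35, 1.496, 1.15 and 0.90, and Gpr17, Pdgfra, Gria2 and Trim44 differed by -0.69, -0.64, -0.72 and -0.71. In each of these 8 genes the libraries of the 2 co-cultures did not overlap.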

How the data were processed

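Directional poly(A) libraries were sequenced over 75 cycles on a NextSeq500, per the labels. The authors deposited TPM, with 1 column for each library and a total of 1000000 in each. The submitters' processing notes name Salmon 0.14.1, DESeq2 1.22.2, FastQC 0.11.8, MultiQC 1.7 and the build GRCm38. The table used here holds no counts, so depth is unknown and no count test was run.

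Names and positions came from GENCODE M21, and promoter windows from RefSeq on GRCm38.p6. Genes at 1 TPM or more in at least 2 of the 4 libraries compared were tested as log2(TPM + 1), a scale that understates changes of low genes. The 6 Oli-neu libraries shared a fit in R 4.3.3 (limma 3.58.1, trend on the mean), with 2-sided tests and Benjamini-Hochberg adjustment over all 12025 genes at a threshold of 0.05. The procedure was tested on simulated data. SE is limma's moderated standard error.

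The comparison, the gene lists and the rule for naming genes were chosen with earlier results of these data known, so list counts and medians are descriptions. Genes were named if they were among the 15 highest or 15 lowest protein-coding genes that averaged 5 TPM or more in a group, with no overlap and the same sign in both numbers, among the 10 smallest p values, among the 4 smallest p values of a list, or among identity genes of the lineage. Some genes that the rule names are not reported here. Further members of the lists, such as Junb, Dusp1, Spred1, Egr1, Erbb4, Tyro3, Cntn1, Tnr, Lama5, Timp4, Atf4, Ddit3, Asns, Dnajb1, Hspe1, Ccn1, Hey1 and Tgfb1, were picked once their values had been seen. As alternatives, the pseudocount was set to 0.1 or 5 TPM, the filter was dropped or raised to 5 TPM, columns were scaled by median ratios, and fits used protein-coding genes alone, no mitochondrial genes, no trend, robust estimation, the 4 libraries compared, a replicate block, or all but 1 of the 4 libraries.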

Additional observations from a re-analysis of the deposited data

How the results depend on the processing

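With 2 libraries a group and no counts, only large and even differences can pass, and p values measure the spread between these samples. Under the alternatives no gene passed for D341 against alone except 3 genes with no filter, 1 gene (Dhrs3) with protein-coding genes alone, and 0 to 2 genes with each library left out. Without library 2 of D341 the count was 2, and for D341 against MB1 it was 3 without that library, 3 with no filter and 0 to 3 over the libraries left out. Where 1 library was left, its spread was taken from the other groups.

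The number at an unadjusted p under 0.05 was 1688 in limma, 1056 after median-ratio scaling and 821 to 1044 with a library left out (878 and 1044 without D341 library 1 and 2, 821 and 942 without library 1 and 2 of the cells alone). With the replicate block it was 2582, with the replicate block on the 4 libraries 2608, and under neither did any gene pass. Deviations of same-numbered libraries from their group means correlated across genes at 0.61 to 0.64, and a first component with 54.9% of the variance separated the numbers in all 3 groups, but with 2 pairs the numbers are not taken to pair the samples. Scaling, chosen after seeing the data for these counts, moved the genes without overlap to 2459 higher and 2436 lower, against 859 and 5355 as deposited. It lowered the share of lower genes at an unadjusted p under 0.05 to 43.1%, against 88.0%.

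Of 2928 values of 175 named genes under the alternatives, 2913 kept their sign. After scaling, with or without the replicate block, Slc1a3 turned to 0.000597, Aldoc to 0.0631, Zic2 to 0.0194, Cspg4 to 0.0444 and Rtl8a to 0.0756. With a library left out, the lowest and highest differences were -0.48 and 0.0470 for Neurod1, -0.33 and 0.0439 for Zic2, -0.51 and 1.1 for Pecam1 and -0.0753 and 0.12 for Sox10. The causes were not tested.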

Other observations

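Mitochondrially encoded genes held 3.40% and 4.03% of TPM with D341, 3.28% and 4.53% beside MB1 and 1.93% and 4.002% alone, so that library 1 of the cells alone stood apart from the other 5. All 13 tested mitochondrially encoded genes had a higher mean beside D341 and 6 did not overlap with the cells alone, with a median log2 difference of 0.47 that came to 1.01 within number 1 and 0.11 within number 2. Without library 1 of the cells alone the median was 0.36, without library 2 of the cells alone 0.99, and without library 1 and 2 of D341 0.48 and 0.71. mt-Co3, a subunit of cytochrome c oxidase, had 3507 and 2857 TPM with D341 and 1594 and 1988 TPM alone. Of 91 nuclear genes of the respiratory chain, 6 were higher and 38 lower without overlap, against 7.14% and 44.5% of all tested genes. Their median of -0.14 turned to 0.04 after median-ratio scaling. Atp5g3, an ATP synthase subunit, had 230 and 232 TPM with D341 and 334 and 325 TPM alone. Among 93 cytosolic ribosomal proteins, 18 were higher and 14 lower without overlap, and these genes have many processed copies that can share their reads.

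Antioxidant genes, mostly targets of NRF2, had none of 21 higher and 14 lower without overlap, against 7.14% and 44.5% of all tested genes. Their median was -0.20 and came to -0.03 after scaling. After scaling 5 antioxidant genes were higher and 4 lower without overlap, against 20.45% and 20.26% of all tested genes. Prdx1, a peroxiredoxin, had 91.9 and 96.2 TPM with D341 and 147 and 133 TPM alone, and Txn1, thioredoxin, had 98.4 and 87.4 TPM with D341 and 139 and 121 TPM alone. Lysosome and autophagy genes had 6 of 28 higher and 3 lower, with a median of 0.02 and of 0.20 after scaling. Map1lc3b, a coat protein of autophagosomes, had 63.5 and 68.5 TPM with D341 and 44.9 and 56.3 TPM alone. Genes of vesicles and the ESCRT machinery, which forms exosomes, had 5 of 35 higher and 17 lower, the lower share near that of all tested genes. The tetraspanins went apart, with Cd9 at 481 and 452 TPM with D341 and 356 and 368 TPM alone, and Cd82 at 3.59 and 3.22 TPM with D341 and 7.14 and 5.10 TPM alone. Chmp3, an ESCRT-III subunit, had 20.0 and 28.6 TPM with D341 and 54.4 and 39.4 TPM alone. None of these genes passed an adjusted p of 0.05 in limma.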
